A study of Mus musculus with 12 samples.

Results

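Tumours treated with a PD-1 nanobody were compared directly with tumours treated with an OD nanobody. The comparison used the 3 libraries of each single-arm construct, 6 of the 12 RNA-seq libraries in the series, and every gene with an FPKM (fragments counted per transcript length and library size) of at least 1 in at least 3 of these 6 libraries. That rule kept 13121 of the 41009 genes in the table (32.0%). All groups were female BALB/c mice, 4 to 5 weeks old, that carried mCherry-4T1 cells, a labelled mouse mammary carcinoma line, after injection of 5000000 cells into the mammary fat pad. Treatment was intraperitoneal and started on day 7. VHH-PD-1-Fc was given at 2.6 mg/kg and VHH-OD-Fc at 3.5 mg/kg, so the doses of the compared groups differ. Each of the other groups also had 3 libraries. One received the control Ctrl-Fc at 5 mg/kg (Ctrl), and the other, at 4.3 mg/kg, a construct with both arms named VHH-OD-PD-1-Fc. The labels do not say how often the constructs were given, when tumours were taken, or whether libraries of a group came from separate animals. P-values therefore measure the spread between libraries, which may be technical.

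A VHH, or nanobody, is the antigen-binding domain taken from antibodies of camels and llamas that lack light chains, here fused to an antibody constant part (Fc). PD-1, encoded by Pdcd1, is an inhibitory receptor of activated T cells, and its ligand PD-L1, encoded by Cd274, is induced on tumour and myeloid cells by interferons. The labels do not spell out OD, and the series title speaks of endogenous digoxin-like substances. Interferons act through JAK kinases and STAT transcription factors and switch on antiviral effectors, guanylate-binding proteins and chemokines that attract T cells. The other large compartments of a mammary fat pad tumour are the carcinoma cells, myeloid cells, fibroblasts with the collagen they lay down, vessels and fat.

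The libraries held an estimated 44000000 to 52200000 counted reads in VHH-PD-1-Fc and 47400000 to 61450000 in VHH-OD-Fc. The sum of FPKM over all genes was 388142 to 401179 in VHH-PD-1-Fc and 327792 to 345596 in VHH-OD-Fc, and 82 ribosomal protein genes held 14.2% to 16.7% and 9.70% to 10.8% of that sum. On log2(FPKM + 1) over the genes tested, Pearson's r was 0.954 to 0.963 among VHH-PD-1-Fc libraries, 0.975 to 0.984 among VHH-OD-Fc libraries and 0.898 to 0.947 between the groups. Along the first principal component (61.2% of the variance) the groups lay apart, with VHH-PD-1-Fc replicate 2 farthest out. The median SD per gene was 0.24 in VHH-PD-1-Fc and 0.12 in VHH-OD-Fc. The labels name no batch, so the construct and any batch that goes with it cannot be told apart.

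Of the 13121 genes, 3647 (27.8%) passed an adjusted p of 0.05 (limma, Benjamini-Hochberg, two-sided). In VHH-PD-1-Fc 1180 genes (8.99%) were higher and 2467 (18.8%) lower. A change of at least 2-fold on the log2(FPKM + 1) scale was reached by 307 of the higher and 601 of the lower genes. The libraries of both groups did not overlap for 6334 genes (48.3%), of which 2043 were higher and 4291 lower. The median log2 fold change of all genes tested, VHH-PD-1-Fc minus VHH-OD-Fc throughout, was −0.17. Scaling moved that median to −0.40 with values rescaled to TPM, to −0.02 with median-of-ratios factors and to −0.00 after quantile normalization. Higher genes then made up 14.3% (755 genes), 53.4% (1651) and 56.4% (1489) of the calls. No gene called in the main test was called in the opposite direction under any of the 20 alternatives. The number of calls fell to 903, 1496 and 778 when VHH-OD-Fc replicate 1, 2 or 3 was left out, and lay between 2897 and 3920 on leaving out a library of VHH-PD-1-Fc. In the former fits 339, 617 and 292 genes were called higher and 564, 879 and 486 lower. Without VHH-PD-1-Fc replicate 1, 2 or 3, the numbers were 1330, 983 and 1112 higher and 2576, 1914 and 2808 lower. Calls of list members with a library left out are read against these numbers, not against 8.99% and 18.8%.

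**Figure D1:**
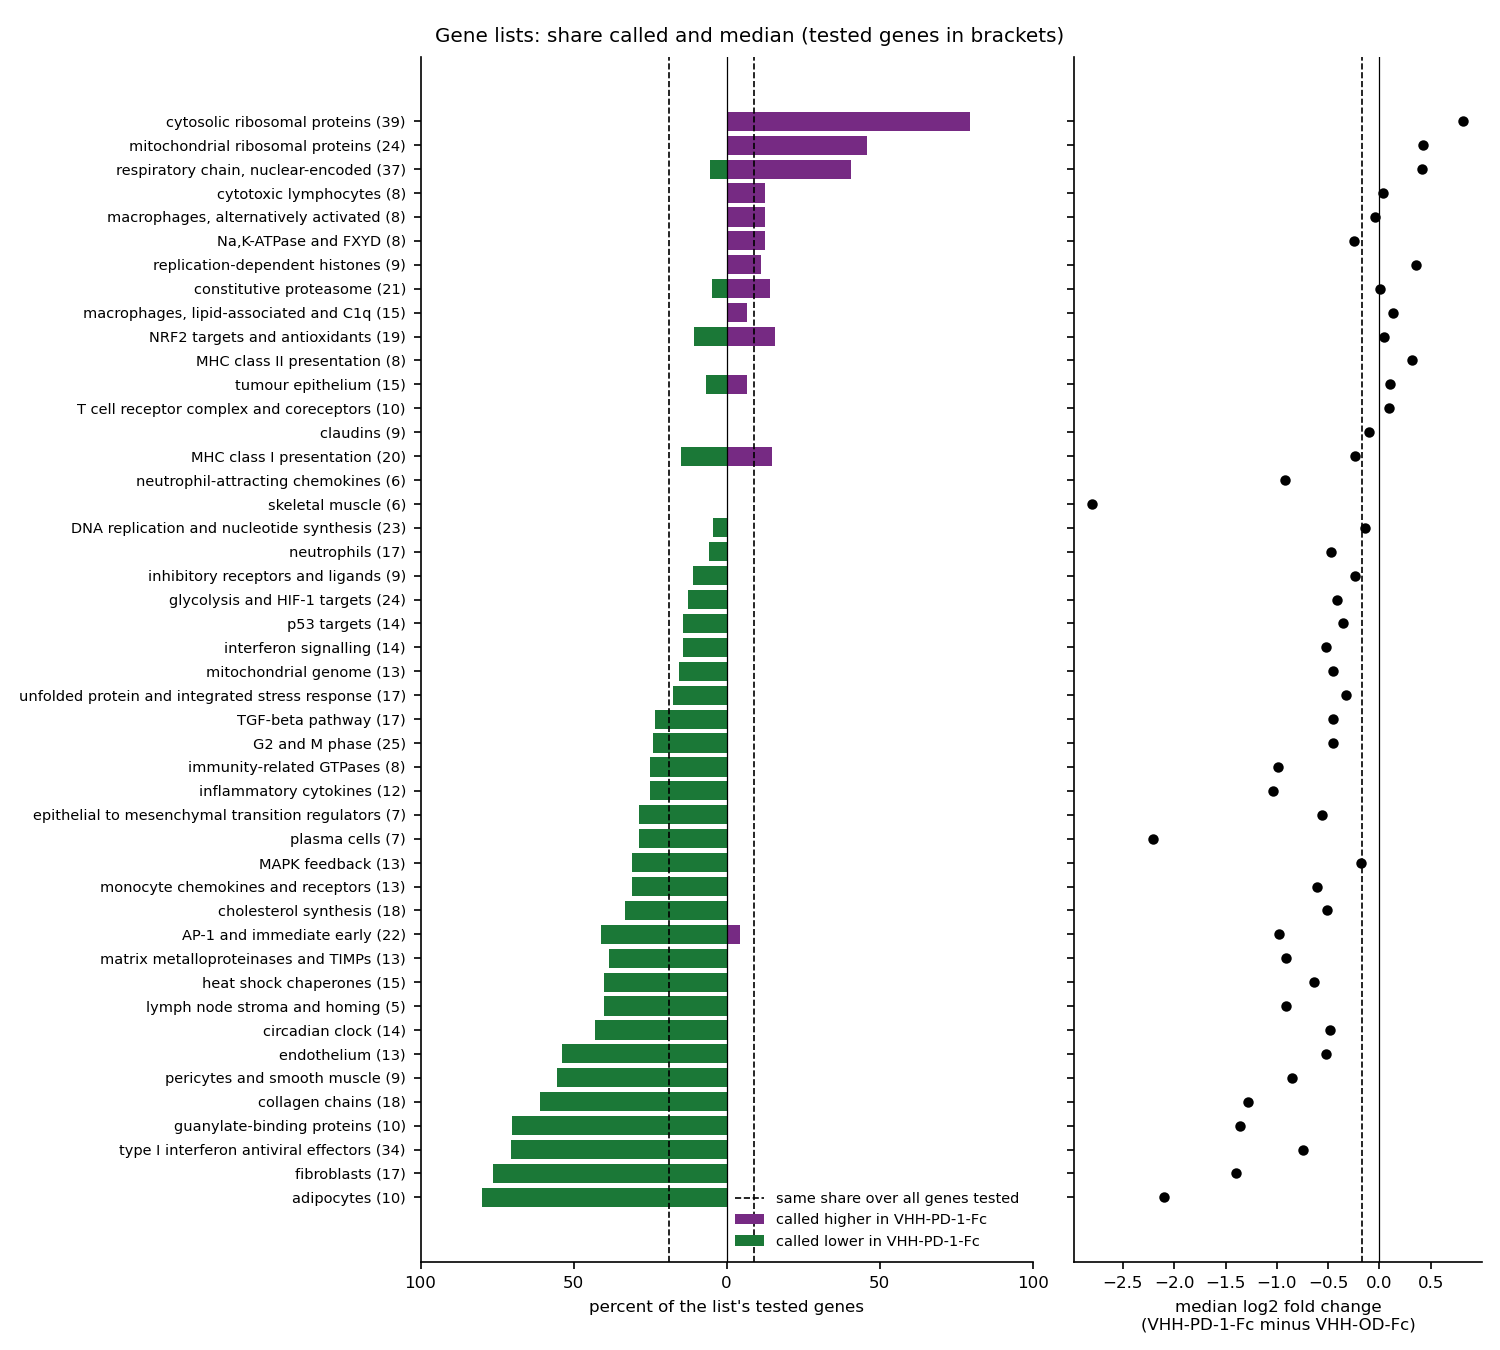
Left: percent of each list's tested genes (number in brackets) called higher (right of 0) or lower (left of 0) in VHH-PD-1-Fc, with dashed lines at the shares over all genes tested, 8.99% and 18.8%. Right: median log2 fold change of each list, with a dashed line at −0.17, the median of all genes. Ribosomal proteins stand at the top, and fat, fibroblast and interferon lists at the bottom. Lists of at least 5 tested genes are drawn.

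Interferon-induced genes were lower in VHH-PD-1-Fc. Of 34 type I interferon antiviral effectors, which block viral replication at several steps, 24 fell, 0 rose and 10 did not pass. All 34 had a negative log2 fold change, with a median of −0.74 beside −0.17 over all genes. Among 10 guanylate-binding protein genes tested, large GTPases that attack vacuoles of intracellular microbes, 7 fell (median −1.36). Among 8 immunity-related GTPases 2 fell, Tgtp2 and Irgm1 (median −0.99), a share near the 18.8% over all genes. Calls in that list numbered 0, 1 and 0 without VHH-OD-Fc replicate 1, 2 or 3, and 4 without VHH-PD-1-Fc replicate 2 or 3. The medians of these 3 lists stayed negative under each of the 20 alternatives. With VHH-OD-Fc replicate 1, 2 or 3 left out, 6, 9 and 9 antiviral effectors and 4, 5 and 4 guanylate-binding proteins passed. In the same fits 564, 879 and 486 of all 13121 genes were called lower.

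Promoters of Gbp5 and Gbp3 are shown because guanylate-binding proteins fell in most cases and all 5 with a promoter in the table held the motif searched for. That motif, the interferon-stimulated response element, was written as 2 GAAA repeats with any 2 bases between them and searched on both strands in RefSeq promoters of build GRCm38.p6, from 250 bases before to 50 after the start. It stood in 1079 of 27025 genes (3.99%), in 12 of 23 antiviral effectors with a promoter in the table, in 5 of 5 guanylate-binding proteins and in 5 of 7 immunity-related GTPases. It stood in 4.39% of all genes called lower and 4.14% of those called higher. Promoters of the antiviral effectors Ifit2, Cmpk2 and Samd9l held 0 matches. A motif of the AP-1 transcription factor, TGANTCA with N for any base, was searched in the same way. It stood in 0 of 17 immediate early genes with a promoter, against 6.61% of genes tested. A match is a description of the letters only. The promoter shown for Gbp5 lies at chr3:142496684-142496983 and that for Gbp3 at chr3:142559794-142560093, both on the plus strand. Capitals mark each match. The Gbp5 promoter holds 1 match and the Gbp3 promoter shown holds 2 that overlap. Another Gbp3 promoter, at chr3:142560106-142560405, held 0 matches and is not shown.
Gbp5: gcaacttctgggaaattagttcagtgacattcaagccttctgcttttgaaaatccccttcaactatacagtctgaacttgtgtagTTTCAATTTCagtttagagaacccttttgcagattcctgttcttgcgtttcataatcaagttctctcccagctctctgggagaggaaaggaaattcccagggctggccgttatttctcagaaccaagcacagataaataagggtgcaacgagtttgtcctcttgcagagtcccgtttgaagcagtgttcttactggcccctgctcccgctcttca
Gbp3: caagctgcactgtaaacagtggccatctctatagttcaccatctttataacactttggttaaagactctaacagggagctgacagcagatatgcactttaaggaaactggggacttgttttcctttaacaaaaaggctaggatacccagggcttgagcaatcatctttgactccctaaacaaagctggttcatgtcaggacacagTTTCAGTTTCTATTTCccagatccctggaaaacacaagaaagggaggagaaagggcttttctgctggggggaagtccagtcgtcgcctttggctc

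Gbp5 had 5.48, 6.21 and 4.92 FPKM in VHH-OD-Fc and 1.63, 0.605 and 1.53 in VHH-PD-1-Fc. Its log2 fold change was −1.57 ± 0.21 (SE, n = 3 libraries per group, limma adjusted p = 0.00649). Gbp3 had 33.5, 35.1 and 35.5 FPKM against 12.3, 8.62 and 18.1, a log2 fold change of −1.40 ± 0.24 (adjusted p = 0.00984 by limma). The groups did not overlap for either gene, and the VHH-PD-1-Fc libraries spread more widely on the log2 scale than those of VHH-OD-Fc. Gbp9 fell from 19.2, 16.3 and 16.0 to 5.27, 2.97 and 6.01 FPKM, and Gbp10 from 3.49, 3.02 and 3.07 to 0.418, 0.0651 and 0.39.

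Ifit2, which binds viral RNA, had 6.13, 5.71 and 5.19 FPKM in VHH-OD-Fc and 1.47, 1.83 and 1.81 in VHH-PD-1-Fc (log2 fold change −1.30 ± 0.13, limma adjusted p = 0.00472). Oas2, an enzyme that makes the activator of RNase L, had 15, 15.2 and 11.5 against 5.40, 3.71 and 4.45 FPKM (−1.44 ± 0.17, limma adjusted p = 0.00539). Both genes were tight within each group, and both passed in every alternative in which they were tested (19 for Ifit2, 20 for Oas2). Cmpk2 and Samd9l fell by 1.36 and 1.35 on the log2 scale. Ifi211, a member of the interferon-inducible p200 family, fell further, from 16.2, 12.3 and 13.3 FPKM to 1.86, 1.25 and 1.03 (−2.66 ± 0.17, limma adjusted p = 0.00223).

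Of 14 interferon signalling genes 2 fell, Stat2 and Socs3, a share near the 18.8% over all genes. All 14 had a negative log2 fold change (median −0.52). For 5 of the 14 the libraries of the groups did not overlap, a share below the 48.3% over all genes. Over all 13121 genes, 4291 were lower without overlap, so the 5 do not stand far from the background. The number called varied (1 with any VHH-OD-Fc library left out, 3 with any VHH-PD-1-Fc library left out). Stat2, part of the complex that binds the response element, went from 21, 22.4 and 18.4 FPKM to 10.5, 7.38 and 8.29 (−1.16 ± 0.15, limma adjusted p = 0.00624). Socs3, a feedback inhibitor, had an adjusted p of 0.0488 and passed in 6 of 20 alternatives. Irf1, which had 62.3, 53.3 and 53.1 against 49.6, 25.1 and 37.9 FPKM, did not overlap but missed the threshold (−0.62 ± 0.24, limma adjusted p = 0.0883). The receptors Ifnar1, Ifnar2, Ifngr1 and Ifngr2 did not pass, with log2 fold changes of −0.01, −0.18, −0.10 and −0.28. Ifng itself stayed below the filter, at 0.507 to 0.657 FPKM in VHH-OD-Fc and 0.106 to 0.672 in VHH-PD-1-Fc.

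Cd274, the gene of PD-L1, was lower in VHH-PD-1-Fc, at 6.15, 1.44 and 5.67 FPKM against 12.8, 12.4 and 11.3 (−1.43 ± 0.39, limma adjusted p = 0.0338). The groups did not overlap, replicate 2 of VHH-PD-1-Fc was lowest, and the call was lost in 7 of 20 alternatives, among them those that left out 1 VHH-OD-Fc library alone. Cxcl10, a chemokine that draws T cells through CXCR3, fell from 7.41, 9.15 and 5.47 to 3.48, 2.32 and 2.29 FPKM (−1.16 ± 0.21, limma adjusted p = 0.0115), a call lost without VHH-OD-Fc replicate 1. Cxcl9, which binds the same receptor, overlapped between the groups at 18.5, 23.5 and 18.2 against 15, 16.4 and 18.3 FPKM (95% interval −0.60 to 0.08). Of 20 genes of MHC class I presentation 3 fell and 3 rose, against 18.8% and 8.99% of all genes, so neither share stood far from the background. The fallers included Erap1, which trims peptides (−0.99), and Tap1, a subunit of the peptide transporter (−0.75, limma adjusted p = 0.0496, passing in 5 of 20 alternatives). None of the fallers passed with any VHH-OD-Fc library left out, 1 passed without VHH-PD-1-Fc replicate 2 and 6 genes fell without its replicate 1. None of 8 MHC class II genes passed, and their median of 0.32 turned to −0.09 after quantile normalization.

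**Figure D2:**
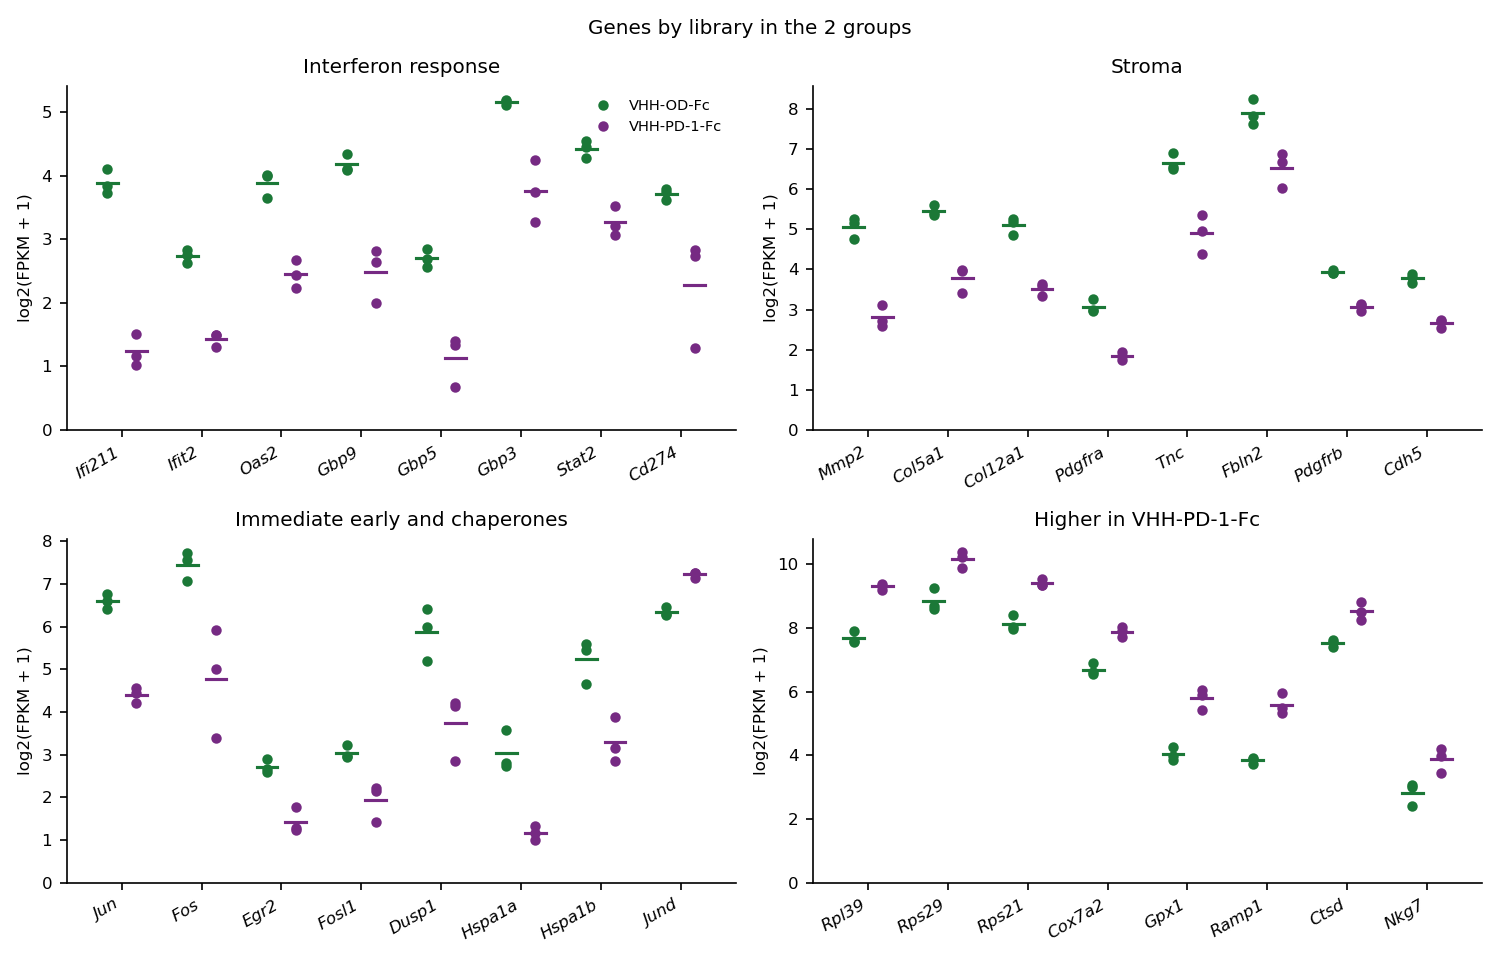
Level of 32 genes as log2(FPKM + 1) in each library (points) with the group mean (bar), VHH-OD-Fc in green and VHH-PD-1-Fc in purple. In the 3 panels of interferon, stromal and immediate early genes the VHH-PD-1-Fc points lie below those of VHH-OD-Fc, except for Jund. The last panel holds genes that were higher in VHH-PD-1-Fc.

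Stromal genes were lower in VHH-PD-1-Fc as well. Their lists are read against 18.8% of all genes called lower and a median of −0.17 over all genes. Of 18 collagen chain genes tested 11 fell and 0 rose (median −1.29), and of 17 fibroblast markers 13 fell and 0 rose (median −1.40). Pericyte and smooth muscle markers fell in 5 of 9 (median −0.86), endothelial markers in 7 of 13 (median −0.52), and matrix metalloproteinases and their TIMP inhibitors in 5 of 13 (median −0.91). Without VHH-OD-Fc replicate 1, 2 or 3, 8, 8 and 9 collagens, 7, 8 and 5 fibroblast markers, 2, 2 and 3 pericyte markers, 3, 3 and 2 endothelial markers and 1 protease or inhibitor in each case passed, the last list also dropping to 3 without VHH-PD-1-Fc replicate 2. In bulk tumour RNA, fewer cells of a type and less RNA per cell cannot be told apart.

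Col5a1 encodes a chain of the fibril-nucleating collagen V, and had 47.6, 41.4 and 40.2 FPKM in VHH-OD-Fc and 9.75, 14.5 and 14.9 in VHH-PD-1-Fc (−1.67 ± 0.18, limma adjusted p = 0.00531). Col12a1, a collagen that decorates fibrils, had 37.3, 28.2 and 35.3 against 9.04, 11.4 and 11.0 FPKM (−1.59 ± 0.15). Col5a2 and Col5a3 fell by 1.53 and 1.54. Col1a1, a chain of collagen I, had 589, 529 and 362 FPKM against 128, 263 and 195. Its call (−1.36 ± 0.29, limma adjusted p = 0.0174) was lost in 5 of 20 alternatives, among them those without VHH-OD-Fc replicate 1 or 2, while that of Col5a1 held in all 20.

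Mmp2, the gelatinase made mainly by fibroblasts, had 37.0, 34.9 and 26.0 FPKM in VHH-OD-Fc and 5.04, 7.59 and 5.6 in VHH-PD-1-Fc (−2.25 ± 0.19, limma adjusted p = 0.00415). Pdgfra, the receptor that marks fibroblasts, went from 6.89, 8.60 and 6.77 to 2.33, 2.57 and 2.87 FPKM. Tnc, a matrix glycoprotein, went from 92.4, 89.0 and 119 to 20, 30.1 and 39.7. For these 3 genes every VHH-OD-Fc library was more than 2-fold above every VHH-PD-1-Fc library. Fbln2, a matrix protein, had 224, 198 and 303 against 102, 63.8 and 117 FPKM, a call lost without VHH-OD-Fc replicate 3. Dpt, a small matrix protein, fell by 2.66 and passed in all 20 alternatives.

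Pdgfrb, the receptor of pericytes, had 14.9, 14 and 14 against 6.77, 7.74 and 7.65 FPKM (−0.86 ± 0.11, limma adjusted p = 0.00614). Cdh5, the endothelial cadherin, had 11.6, 13.7 and 13 against 4.81, 5.55 and 5.72 (−1.12 ± 0.13, limma adjusted p = 0.00539), and Pecam1 and Kdr fell by 1.07 and 0.82, the latter not passing without VHH-OD-Fc replicate 3. Both groups were tight for these vessel genes. Of 17 TGF-beta pathway genes 4 fell (2 with any VHH-OD-Fc library left out), a share near the 18.8% over all genes. Vegfa, which drives vessel growth, had 65.3, 60.3 and 63.6 against 37.6, 6.22 and 21.1 FPKM. It was uneven within VHH-PD-1-Fc, and its call (limma adjusted p = 0.0437) was lost in 10 of 20 alternatives, among them those without VHH-PD-1-Fc replicate 3 or any VHH-OD-Fc library.

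Fat genes were lower in VHH-PD-1-Fc, while the list means of muscle and plasma cell genes overlapped between the groups. In each of these 3 lists VHH-OD-Fc replicate 2 had the highest mean of the 6 libraries. Of 10 adipocyte genes 8 fell (median −2.10), against 18.8% of all genes. Among the 8 were the 2 largest falls named in the whole comparison. Cfd, the fat-derived protease adipsin, had 55.4, 209 and 122 FPKM in VHH-OD-Fc and 0.309, 6.07 and 35.1 in VHH-PD-1-Fc (−4.03 ± 1.11, limma adjusted p = 0.0349). Car3, a carbonic anhydrase of fat and muscle, had 13, 71.6 and 33.5 against 0.298, 0.913 and 5.36 FPKM. In both genes the highest VHH-OD-Fc library was replicate 2 and the highest VHH-PD-1-Fc library was replicate 3. Without VHH-OD-Fc replicate 1, 2 or 3, 7, 3 and 0 adipocyte genes passed, and without VHH-PD-1-Fc replicate 1, 2 or 3, 5, 3 and 8. Car3 did not pass without VHH-OD-Fc replicate 3, nor Cfd without any VHH-OD-Fc library or VHH-PD-1-Fc replicate 2.

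Skeletal muscle genes had the lowest list median (−2.80 over 6 genes), yet none passed. Atp2a1, the calcium pump of fast muscle, had 0.226, 116 and 22.8 FPKM in VHH-OD-Fc and 1.20, 0.119 and 0.106 in VHH-PD-1-Fc. Ighg1, an immunoglobulin heavy chain, had 14.7, 75.4 and 2.77 against 0.16, 0.133 and 0.903 FPKM, and Jchain, which joins antibody units, had 5.31, 37.1 and 0.913 against 1.64, 0.0729 and 3.78. Each of these genes peaked in VHH-OD-Fc replicate 2. Of 7 plasma cell genes 2 fell, Ighm and Ighg1, against 18.8% of all genes. None of the 7 fell with any VHH-PD-1-Fc library or VHH-OD-Fc replicate 1 left out. That list had a median of −2.21 with all libraries and 0.03 when both libraries numbered 2 were left out. Mean levels of the 12 B cell markers were 0.26 to 0.92 in VHH-OD-Fc and 0.19 to 0.38 in VHH-PD-1-Fc on the log2(FPKM + 1) scale, and no B cell marker reached the filter. Ccl21a and Cxcl13, chemokines of lymph node stroma, fell by 2.54 and 2.44, and neither passed on leaving out VHH-OD-Fc replicate 2 or, likewise, replicate 1 of VHH-PD-1-Fc. The part of carried-over fat, muscle or lymphoid tissue in the stromal and interferon results was not tested. With both libraries numbered 2 left out, 8 collagens, 7 fibroblast markers and 8 antiviral effectors fell. VHH-OD-Fc replicate 3, which that fit keeps, also had high list means, 3.53 for adipocyte and 3.75 for muscle genes, against at most 2.45 and 1.32 in VHH-PD-1-Fc.

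Immediate early genes, which cells switch on within minutes of a stimulus, were lower in VHH-PD-1-Fc in 9 of 22 cases, and 1 rose (median −0.98). Over all genes 18.8% fell and 8.99% rose. Jun, a core subunit of the AP-1 transcription factor, had 97.0, 108 and 83.8 FPKM in VHH-OD-Fc and 22.6, 17.7 and 20.7 in VHH-PD-1-Fc (−2.19 ± 0.15, limma adjusted p = 0.00223). Fos, its partner, had 210, 187 and 133 against 31.4, 9.43 and 59.6 FPKM (−2.67 ± 0.58, limma adjusted p = 0.0176). The groups were far apart for Jun, which passed in all 20 alternatives, while Fos varied within VHH-PD-1-Fc and did not pass with any VHH-OD-Fc library left out. Jund, another AP-1 subunit, moved the other way, from 87.4, 77.4 and 76.8 to 141, 153 and 153 FPKM. Egr2, Fosl1 and Fosl2 fell by 1.29, 1.11 and 0.91. Of 13 MAP kinase feedback genes 4 fell, against 18.8% of all genes, and 6 had a positive log2 fold change. The fallers included the phosphatases Dusp1 and Dusp6 (−2.13 and −1.09), which shut these kinases off, and neither passed without VHH-OD-Fc replicate 1. That list's median of −0.18 was 0.01 after quantile normalization and 0.31 after a length and GC correction, and 0, 3 and 2 of its genes passed without VHH-OD-Fc replicate 1, 2 or 3. Immediate early genes numbered 3, 4 and 2 lower without VHH-OD-Fc replicate 1, 2 or 3, Fosl1 not passing without replicate 1 or 3 and Fosl2 without replicate 3.

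Of 15 heat shock chaperones 6 fell (median −0.64). Hspa1a had 5.63, 11.0 and 6.02 FPKM in VHH-OD-Fc and 1.25, 1.01 and 1.5 in VHH-PD-1-Fc (−1.87 ± 0.24, limma adjusted p = 0.00608), and Hspa1b fell by 1.93. No VHH-PD-1-Fc library reached the lowest VHH-OD-Fc library in either gene. The time between removal of the tumour and RNA extraction is not in the labels, and its part in the immediate early and chaperone genes was not tested. In the unfolded protein response 3 of 17 genes fell, a share close to the 18.8% over all genes. Without VHH-OD-Fc replicate 1, 2 or 3, 4, 3 and 1 chaperones passed (Hspa1b not without replicate 3), and 0 genes of the unfolded protein response in each case. Without VHH-PD-1-Fc replicate 1 or 2, 6 and 5 genes of that response passed.

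Of 25 genes of the G2 and M phases 6 fell (median −0.45), a share near the 18.8% over all genes, and 2 fell after the length and GC correction. Prc1, which bundles microtubules of the dividing cell, had 8.06, 6.35 and 7.82 FPKM against 1.85, 1.58 and 1.36 (−1.69 ± 0.15, limma adjusted p = 0.00415), and Kif20a, a motor of cytokinesis, had 11.9, 11.4 and 9.58 against 3.25, 2.99 and 2.14. Mki67, the proliferation marker Ki-67, had 22.6, 20.6 and 17.1 against 5.39, 6.57 and 12.5 FPKM, and its call (limma adjusted p = 0.018) was lost in 7 of 20 alternatives. Without VHH-PD-1-Fc replicate 3, in which Mki67 was highest of its group, 17 of the 25 passed. Without its replicate 1 or 2, 3 passed, and with any VHH-OD-Fc library left out, 2. Among 23 DNA replication genes 1 fell, Cdc6, and 0 with any VHH-OD-Fc library left out, but 4 without VHH-PD-1-Fc replicate 3. Idi1, an enzyme early in the sterol pathway, had 5.84, 5.34 and 8.82 FPKM against 1.05, 0.582 and 0.618 (−2.11 ± 0.20, limma adjusted p = 0.00422), and 6 of 18 cholesterol synthesis genes fell, against 18.8% of all genes. Of the 18, 1, 3 and 1 passed without VHH-OD-Fc replicate 1, 2 or 3, and without VHH-PD-1-Fc replicate 1, 11.

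Among circadian clock genes 6 of 14 fell (median −0.48), against 18.8% of all genes, with Per2, Dbp and Ciart at −0.73, −0.87 and −1.25. Of the 14, 0 passed with any VHH-OD-Fc library left out or after quantile normalization, and 3 without VHH-PD-1-Fc replicate 3. The hour of tumour collection is not in the labels. The nuclear long non-coding RNAs Malat1 and Neat1 fell, Malat1 from 49.1, 39.5 and 43.6 to 15.2, 10.4 and 19.0 FPKM (−1.54 ± 0.21, limma adjusted p = 0.00683) and Neat1 from 71.3, 61.6 and 62.7 to 41.2, 16.1 and 16.4. Replicate 1 of VHH-PD-1-Fc stood between the other libraries of its group and those of VHH-OD-Fc for Neat1, which did not pass with any VHH-OD-Fc library left out.

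Lists of inflammation are read against the 18.8% of all genes that fell, and the shares of inflammatory cytokines and neutrophil genes were near or below it. Of 13 monocyte chemokines and receptors 4 fell, among them Ccl2, Ccl7 and Ccl8. Ccl2, the main attractant of monocytes, had 24.8, 31.6 and 14.3 FPKM against 8.06, 5.80 and 7.31 (−1.55 ± 0.28, limma adjusted p = 0.0113), and Ccl8 had 109, 167 and 41.0 against 23.3, 22.3 and 17.5. In each of the 3 chemokines VHH-OD-Fc replicate 2 was highest and replicate 3 lowest of its group. Without replicate 1 of that group 1 of the 13 passed, and Ccl7 and Ccl8 did not. Of 12 inflammatory cytokine genes 3 fell, Ptgs2, Nlrp3 and Tnf, and none passed with any VHH-OD-Fc library left out, while 5 passed without VHH-PD-1-Fc replicate 1 and 2 without its replicate 2. Neutrophil markers passed in 1 of 17 cases, Mmp9 (0 with any VHH-OD-Fc library and 3 with VHH-PD-1-Fc replicate 1 left out), and 0 of 6 neutrophil-attracting chemokines passed.

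T cell and cytotoxic genes showed little that passed. Of 10 tested genes of the T cell receptor complex and its coreceptors 0 passed, with a median of 0.10 that was −0.09 after rescaling to TPM. Pdcd1, the target of the PD-1 arm, had 3.15, 2.05 and 1.83 FPKM in VHH-OD-Fc and 4.44, 2.03 and 3.55 in VHH-PD-1-Fc (0.35 ± 0.25, limma adjusted p = 0.312, 95% interval −0.23 to 0.94). Cd8a, the coreceptor of killer T cells, had 3.39, 2.03 and 1.76 against 5.01, 1.26 and 2.54 FPKM (95% interval −0.71 to 0.97). Both groups overlapped for Pdcd1 and Cd8a, and the intervals allow changes of close to 2-fold upward. Cd3d had 1.27, 1.44 and 0.787 against 3.07, 1.47 and 2.63 FPKM (0.63 ± 0.23, limma adjusted p = 0.0742). Without VHH-PD-1-Fc replicate 2, which was lowest of its group for Cd8a and Cd3d, 2 of the 10 genes passed.

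Gzmb and Prf1, the effector proteases and pore protein of killer cells, gave 95% intervals of −0.83 to 0.67 and −0.45 to 0.73. Nkg7, a granule protein of killer cells, was the exception in its list of 8, at 7.37, 6.99 and 4.35 FPKM in VHH-OD-Fc and 17.4, 9.94 and 14.8 in VHH-PD-1-Fc (1.05 ± 0.25, limma adjusted p = 0.0224). The call was lost with any VHH-OD-Fc library or VHH-PD-1-Fc replicate 3 left out. Foxp3, the regulator of regulatory T cells, stayed at or below 0.182 FPKM in all 6 libraries.

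No gene of the 2 macrophage lists was called lower, and few were called higher. Of 15 genes of lipid-associated and C1q macrophages 1 rose, a share below the 8.99% over all genes. Log2 fold changes in that list ran from −1.28 to 1.16, with a median of 0.13. The gene called was Ctsd, a lysosomal protease, which rose from 197, 187 and 168 to 304, 363 and 453 FPKM (1.0 ± 0.17, limma adjusted p = 0.0103). C1qb, a complement subunit made by macrophages, had 271, 259 and 193 against 319, 983 and 488 FPKM, a wide range that did not pass (limma adjusted p = 0.0594). Without VHH-PD-1-Fc replicate 1, 5 of the 15 passed, and without VHH-OD-Fc replicate 3, 0. Of 8 genes of alternatively activated macrophages 1 rose, against 8.99% of all genes, and the median was −0.04. That gene, Ccl24, an eotaxin, went from 2.33, 2.69 and 3.45 to 4.12, 17.1 and 24.0 FPKM. Its call was lost in 9 of 20 alternatives, among them those without VHH-PD-1-Fc replicate 2 or 3 or any VHH-OD-Fc library.

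Carcinoma markers were near level. Of 15 tumour epithelium genes 1 rose and 1 fell, with a median of 0.11 that took either sign across the scalings. Epcam, a carcinoma surface protein, had 109, 84.3 and 129 FPKM in VHH-OD-Fc and 191, 190 and 70.5 in VHH-PD-1-Fc, and Krt18, a keratin, had 1280, 1250 and 1200 against 2060, 1710 and 1100. The groups overlapped for both (95% intervals −0.54 to 1.28 and −0.21 to 0.89). Spint2, a protease inhibitor of epithelia, rose from 77.1, 72.6 and 63.0 to 127, 149 and 101 FPKM, a call lost with any VHH-OD-Fc library left out. Krt14, a basal keratin, fell (−2.30), although its libraries overlapped. Actb, the cytoskeletal actin often used as a reference, had 1070 to 1150 and 991 to 1310 FPKM (95% interval −0.28 to 0.45).

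**Figure D3:**
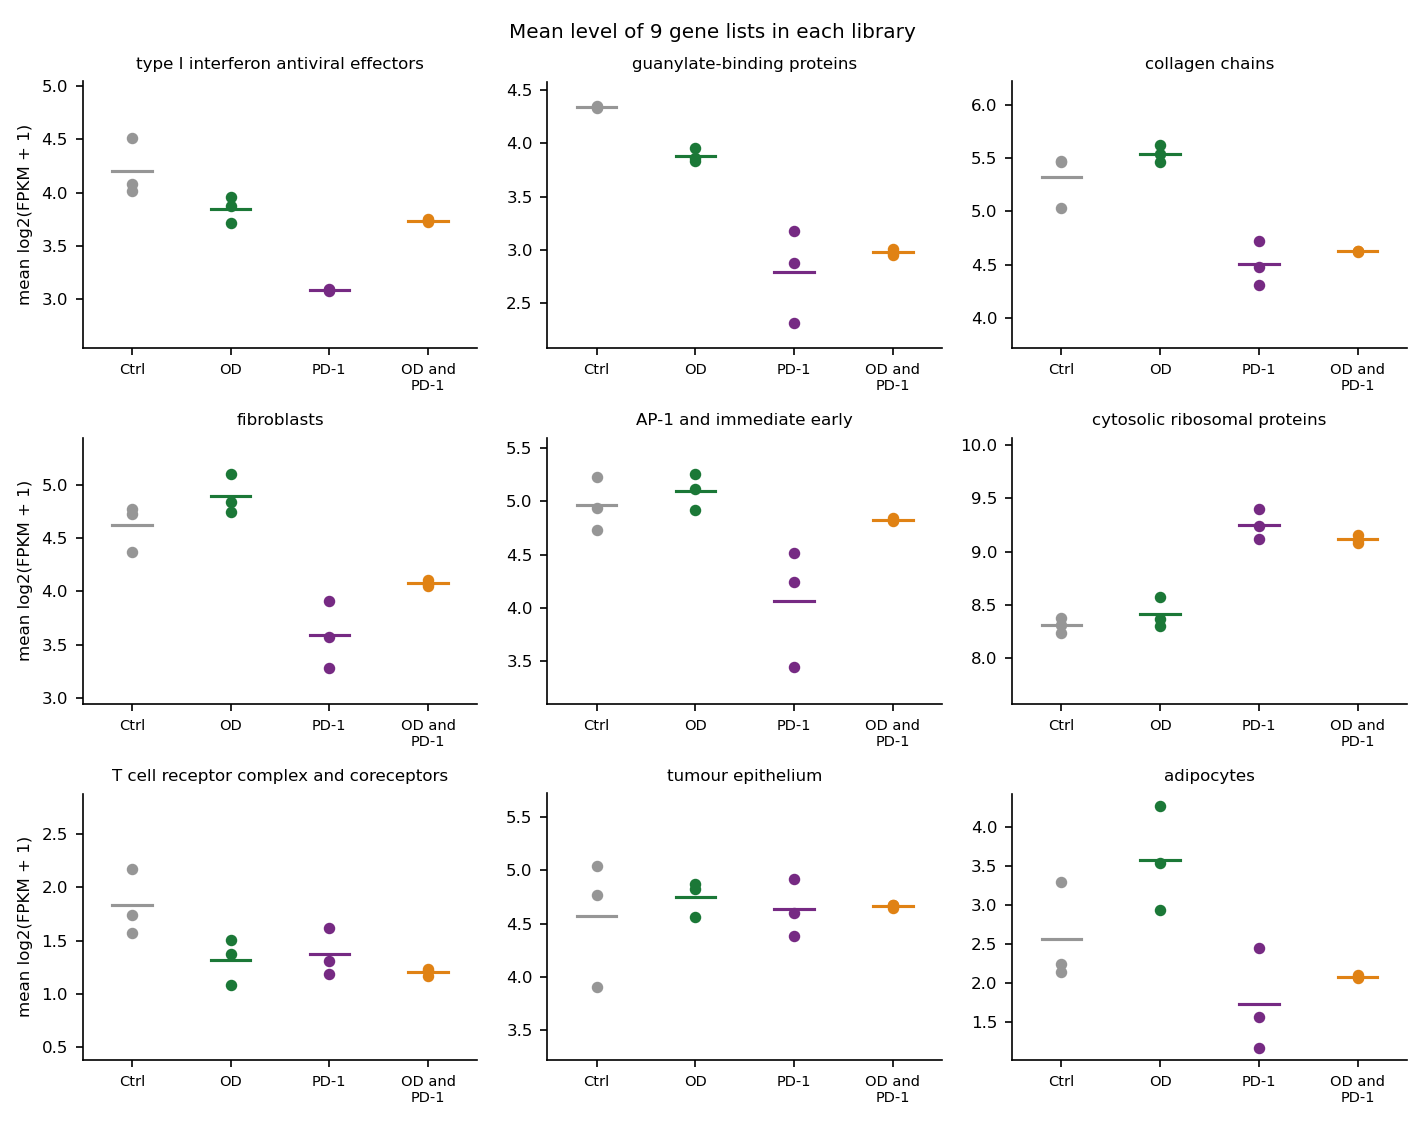
Mean of log2(FPKM + 1) over all genes of 9 lists in each library (points) and group (bar). OD stands for VHH-OD-Fc, PD-1 for VHH-PD-1-Fc and OD and PD-1 for VHH-OD-PD-1-Fc. Antiviral effectors stand at 3.08 to 3.10 in VHH-PD-1-Fc and 3.71 to 3.96 in VHH-OD-Fc, and ribosomal proteins at 9.12 to 9.40 and 8.30 to 8.57. T cell and tumour epithelium lists overlap. Vertical axes do not start at 0.

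Ribosomal protein genes were the main group that was higher in VHH-PD-1-Fc. Of 39 cytosolic ribosomal protein genes 31 rose, against 8.99% of all genes, 0 fell, and all 39 had a positive log2 fold change (median 0.82). Rpl39, a short subunit of the large ribosomal particle, had 193, 238 and 187 FPKM in VHH-OD-Fc and 585, 642 and 666 in VHH-PD-1-Fc (1.62 ± 0.14, limma adjusted p = 0.00415). Rps29, Rps21, Rps20 and Rps27 rose by 1.32, 1.26, 1.24 and 1.24. In Rpl39 the groups were about 3-fold apart with little spread inside either. The median stayed positive under each scaling, between 0.33 after quantile normalization and 1.0 with median-of-ratios factors. Without VHH-OD-Fc replicate 1 or 3, 14 and 12 of the 39 passed, and after quantile normalization 15. Processed pseudogenes share reads with these genes, and how shared reads were counted is not given in the sources used here.

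Mitochondrial ribosomal proteins rose in 11 of 24 cases (median 0.43), and subunits of the respiratory chain that the nuclear genome encodes rose in 15 of 37, with 2 lower (median 0.42). Over all genes 8.99% rose. Without VHH-OD-Fc replicate 1 or 3, 3 and 3 of the 24 and 6 and 4 of the 37 passed. In those fits 339 and 292 of all 13121 genes were called higher. Cox7a2, a small subunit of cytochrome oxidase, had 93.3, 117 and 96.6 FPKM against 237, 209 and 258 (1.19 ± 0.14, limma adjusted p = 0.00574), and Uqcr10 and Ndufb9 rose by 1.04 and 1.02. Of the mitochondrial genome's own 13 genes 0 rose and 2 fell, near the shares over all genes, and 5 had a positive log2 fold change. The 2 were mt-Nd5 (−1.12) and mt-Nd4l (−1.59). The former did not pass with VHH-PD-1-Fc replicate 1 or any VHH-OD-Fc library left out.

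Of single genes, Gpx1, a glutathione peroxidase that removes peroxides, rose from 15, 18.4 and 13.4 to 41.5, 65.7 and 58.4 FPKM (1.75 ± 0.20, limma adjusted p = 0.00539). Ramp1, a coreceptor for the neuropeptide CGRP, rose from 13.9, 12.4 and 14.1 to 39.1, 43.9 and 60.9 (1.74 ± 0.18, limma adjusted p = 0.00493). Both passed in all 20 alternatives. Lgals1, which encodes galectin-1, had 3970, 3560 and 3570 FPKM against 5070, 5810 and 6870, and its call was lost in 10 of 20 alternatives, among them those with any VHH-OD-Fc library left out. The largest rises named were those of Rn7sk, a small nuclear RNA, and Lars2, a mitochondrial leucyl-tRNA synthetase, at 2.56 ± 0.41 and 2.03 ± 0.31. Rn7sk had 9.25, 6.67 and 14.5 FPKM in VHH-OD-Fc and 55, 112 and 38.5 in VHH-PD-1-Fc, but also 40.5, 5.81 and 31.0 in Ctrl. Rn18s-rs5, a locus related to 18S ribosomal RNA, had 2910, 1930 and 2130 against 5900, 9000 and 4390 FPKM, and 5660, 1470 and 4290 in Ctrl. For Rn7sk, Lars2 and Rn18s-rs5 the Ctrl libraries spanned both groups.

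Differences were related to transcript length. Across 12706 genes with a known length, Spearman's rho between length and log2 fold change was −0.32, and 0.21 with GC content. Genes are not independent replicates, so no p is given. Split into 5 equal groups by length, in the shortest, up to 825 bases, 23.7% of genes rose and 13.4% fell, and in the longest, 0.63% rose and 29.9% fell. The median log2 fold change went from 0.10 through −0.01, −0.15 and −0.26 to −0.37. By class, 33.2% of 795 pseudogenes rose and 13.3% fell, against 6.10% and 19.4% of 10884 protein-coding genes. Ribosomal protein genes are short and collagen genes long. After a correction for length and GC content in each library, 29 of 39 ribosomal proteins rose and 11 of 18 collagens, 10 of 17 fibroblast markers, 12 of 34 antiviral effectors and 6 of 10 guanylate-binding proteins fell. With that correction 1288 of 12706 genes fell and 1267 rose, while 2467 of 13121 fell without it. Fewer lower calls were thus not particular to the lists that follow. The number of lower calls went from 7 to 3 for endothelium, from 5 to 2 for pericytes, from 5 to 2 for metalloproteinases and TIMPs and from 9 to 5 for immediate early genes. Lower calls went from 6 to 2 for the G2 and M phases, from 6 to 2 for the circadian clock and from 6 to 3 for cholesterol synthesis.

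Genes at the lower limit also differed. Of all genes measured, 1847 were listed at 0 in the 3 VHH-OD-Fc libraries and above 0 in the 3 VHH-PD-1-Fc libraries, against 378 the other way. Of the 1847, 8 were among the genes tested and 1480 were at 0 in all Ctrl libraries too. Genes above 0 numbered 30257, 25553 and 30973 in VHH-PD-1-Fc and 24924, 26107 and 25906 in VHH-OD-Fc, so replicate 2 of VHH-PD-1-Fc lay within the range of VHH-OD-Fc. The part of these low values and of depth in the calls was not tested.

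**Figure D4:**
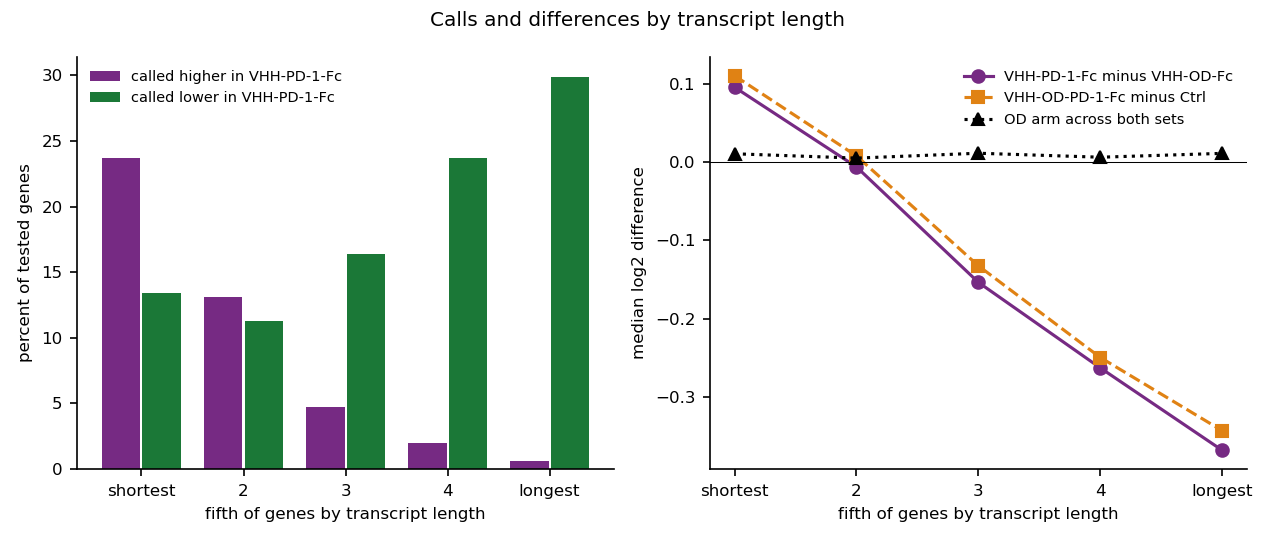
Left: percent of genes called higher or lower in VHH-PD-1-Fc in each of 5 groups of transcript length. Right: median log2 difference in each group for 3 comparisons. The median falls from 0.10 to −0.37 in VHH-PD-1-Fc minus VHH-OD-Fc and from 0.11 to −0.34 in VHH-OD-PD-1-Fc minus Ctrl, and stays at 0.01 for the OD arm.

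The groups compared differ in both arms. VHH-OD-PD-1-Fc against Ctrl also differs in the PD-1 arm, and is the only other such pair that shares no library with the main comparison. It differs in the OD arm too, which goes with the PD-1 arm there, and in dose (4.3 against 5 mg/kg). It is therefore not a contrast of the PD-1 arm alone. In that pair 7125 of the same 13121 genes (54.3%) passed, 2430 higher and 4695 lower in VHH-OD-PD-1-Fc, with a median log2 fold change of −0.15. The libraries of VHH-OD-PD-1-Fc differed little among themselves, with a median SD per gene of 0.07, and 1240 genes passed when their mean was used as 1 sample. Of the 3647 genes called in the main comparison, 3600 (98.7%) had the same sign in that pair. Called in the same direction there were 1020 higher genes, 86.4% of the main list and 42.0% of the other, and 2143 lower genes, 86.9% and 45.6%. The same-sign share over all 13121 genes was not computed. The sum of FPKM was 392283 to 394139 in VHH-OD-PD-1-Fc and 330507 to 337816 in Ctrl. The 82 ribosomal protein genes held 13.5% to 13.9% and 8.84% to 9.63% of it, a split like that of the main comparison. The length trend was also present in both pairs, so sign sharing across genes is not independent of these library-wide differences.

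Some lists had the same sign in both pairs and others did not. Medians in the main comparison and in the other pair were 0.82 and 0.84 for ribosomal proteins, −1.36 and −1.50 for guanylate-binding proteins, −1.29 and −0.70 for collagens and −1.40 and −0.53 for fibroblast markers. Calls in the other pair are read against 4695 lower and 2430 higher of all 13121 genes. For immediate early genes the medians were −0.98 and −0.09. The other pair had 7 lower and 2 higher calls among the 22, neither share above that of all genes. Adipocyte genes had −2.10 and −0.64, with 1 lower and 1 higher call in the other pair against 8 lower in the main comparison. Among lists of opposite sign, the mitochondrial genome had −0.46 and 0.60, with 6 higher and 0 lower calls in the other pair. Neutrophil markers had −0.47 and 0.48, neutrophil-attracting chemokines −0.92 and 0.45, skeletal muscle genes −2.80 and 1.53 and erythroid genes −1.24 and 0.32. The T cell receptor complex and coreceptors had 0.10 and −0.71, with 0 higher and 6 lower calls of 10 in the other pair. Cytotoxic lymphocyte genes had 0.03 and −0.58, with 0 higher and 1 lower call there. Other lists that changed sign are not given. The differences between the pairs were not tested. Rpl39 had 191, 196 and 182 FPKM in Ctrl and 589, 588 and 608 in VHH-OD-PD-1-Fc, and Gbp5 had 11.3, 8.37 and 7.04 against 1.26, 1.71 and 1.43. Mmp2 had 14.6, 33.9 and 25.7 against 4.02, 3.42 and 4.75. By list, the antiviral effectors spanned 4.02 to 4.51 in Ctrl and 3.72 to 3.75 in VHH-OD-PD-1-Fc as mean log2(FPKM + 1), while VHH-PD-1-Fc stood below both at 3.08 to 3.10. Immediate early genes spanned 4.73 to 5.23 in Ctrl and 4.81 to 4.85 in VHH-OD-PD-1-Fc, so those groups overlapped, while VHH-PD-1-Fc stood at 3.44 to 4.52.

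**Figure D5:**
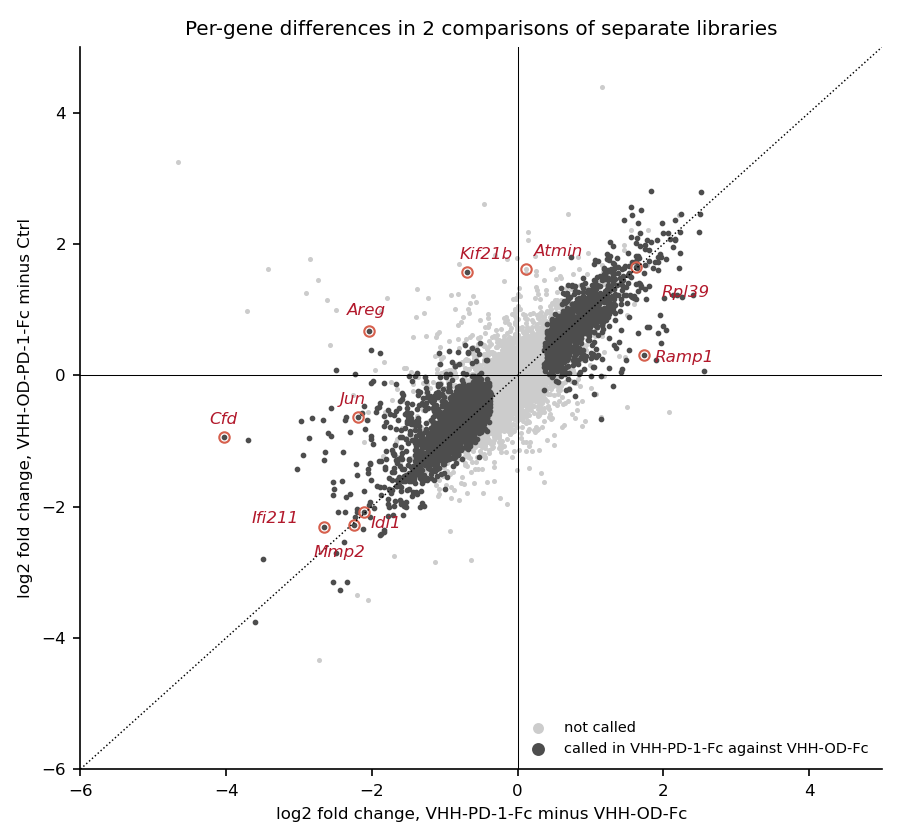
Each point is 1 of 13121 genes, with its log2 fold change in VHH-PD-1-Fc minus VHH-OD-Fc (horizontal) and in VHH-OD-PD-1-Fc minus Ctrl (vertical). Dark points were called in the horizontal comparison. Most dark points lie in the lower left and upper right, and Areg, Kif21b and Atmin lie away from the dotted line of equal change.

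Called in opposite directions were 8 genes. Mrpl49 was higher in VHH-PD-1-Fc and lower in VHH-OD-PD-1-Fc, and the other 7 were lower in the former and higher in the latter. The steepest of the 7, Areg, a ligand of the EGF receptor, was picked after its values were seen. Areg had 35.4, 18.6 and 36.3 FPKM in VHH-OD-Fc against 8.83, 2.49 and 10.1 in VHH-PD-1-Fc (limma adjusted p = 0.0203). Ctrl had 22.5, 31.0 and 37.1 FPKM, against 50.7, 47.3 and 45.3 in VHH-OD-PD-1-Fc. It was thus lowest with the PD-1 arm alone and highest with both arms.

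The OD arm was read across both sets as the mean of VHH-OD-Fc minus Ctrl and VHH-OD-PD-1-Fc minus VHH-PD-1-Fc, in a fit of all 12 libraries. In that contrast 3 of the 13121 genes (0.0229%) passed by limma, all higher with the OD arm, while 1012 had an unadjusted p under 0.05. The 3 were Kif21b, a kinesin motor (1.13, adjusted p = 6.16e-05), Atmin, a cofactor of the ATM kinase (0.75, adjusted p = 7.00e-05), and Jun (0.78, adjusted p = 0.0261). Kif21b had 1.91, 1.69 and 1.64 FPKM in VHH-OD-Fc, 2.36, 1.82 and 2.30 in Ctrl, 0.77, 0.693 and 0.637 in VHH-PD-1-Fc and 7.99, 8.53 and 8.56 in VHH-OD-PD-1-Fc. Atmin had 5.74 to 6.62 FPKM in the 9 libraries of the other groups and 20.4, 21.1 and 21.4 in VHH-OD-PD-1-Fc. For both genes VHH-OD-Fc did not stand above Ctrl, and the group with both arms stood apart. Jun had 84.4, 109 and 78.4 FPKM in Ctrl and 59.2, 56.9 and 55.9 in VHH-OD-PD-1-Fc, and its OD arm call was lost in 10 of 18 alternatives. The VHH-OD-Fc libraries lay within the range of Ctrl for Jun as well. Leaving out VHH-PD-1-Fc replicate 1, 2 or 3 gave 15, 8 and 5 calls.

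By length, the median OD arm difference was 0.01 in each of the 5 groups, and Spearman's rho with length was −0.00. No gene was called lower with the OD arm. The smallest p values in that direction belonged to Itgb5, an integrin subunit, Rab3d, a secretory GTPase, and Ramp1, at −0.43, −0.33 and −0.72. Ramp1 had 9.66, 17.4 and 13.3 FPKM in Ctrl and 16.9, 16.1 and 16.1 in VHH-OD-PD-1-Fc, so of the 4 groups VHH-PD-1-Fc alone stood at 39.1 and above.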

How the data were processed

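RNA was poly(A)-enriched and sequenced as paired reads, per the labels' protocols. The authors deposited 1 table of FPKM values per gene and library. The submitters' processing notes name fastp 0.22.0, HISAT2 2.2.1 and GRCh38, a human assembly, although the table carries mouse gene symbols; the counting tool is not given in the sources used here. The series' design text describes another tumour model than the sample labels, and the labels were followed.

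Columns were matched to samples by title (0 columns were left over). Genes that reached 1 FPKM in 3 or more of the 6 libraries were tested on log2(FPKM + 1) with limma 3.58.1 in R 4.3.3 (trend, Benjamini-Hochberg, threshold 0.05). That scale understates changes of low genes. Counted reads were estimated from the steps of low FPKM values, with 95.7% to 96.7% of them within 0.05 of a whole step over 18552 genes with 1 transcript; depth limits the precision of low genes. The OD arm was fitted over all 12 libraries.

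Named genes were, by rule, the 15 largest rises and falls among called genes whose libraries do not overlap and whose mean is at least 5 FPKM in the higher group, leaving out unnamed gene models, pseudogenes and receptor segments; the 5 called genes of highest level per direction; up to 4 members of smallest p per list; a set of T cell, PD-1 axis and reference genes; and for the OD arm, the called genes and the 3 of smallest p per direction. Areg, Mrpl49, Jund and Krt14 fall outside it and were chosen after their values were seen. Members and the 55 lists (852 entries, 5 unmatched) were chosen with earlier results of these data known. Alternatives covered the pseudocount, scaling, filter, libraries left out, a replicate block and a length and GC correction. Some genes the rule names are not reported here.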

Additional observations from a re-analysis of the deposited data

How the results depend on the processing

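Of the calls between VHH-PD-1-Fc and VHH-OD-Fc, none was reversed in 20 alternatives, but their number moved. Leaving out 1 library gave 778 to 3920 calls, 292 to 1330 higher and 486 to 2808 lower, with the low values from leaving out a VHH-OD-Fc library. Leaving out both libraries numbered 2 gave 764 (329 higher, 435 lower). No filter gave 1729 (753 and 976), a mean FPKM of at least 5 gave 1952 (805 and 1147), and all 12 libraries in the fit gave 5767 (1829 and 3938). Rescaling to TPM gave 755 higher and 4535 lower, median-of-ratios factors 1441 lower, and quantile normalization 1150 lower. A length and GC correction gave 1288 lower, and with the replicate block 1349 calls (630 and 719). Fewer libraries or genes entered the fits that left some out; otherwise the cause was not tested. The replicate block gave 2519 calls (861 higher, 1658 lower). Same-numbered libraries did not deviate together (correlations −0.159, 0.0295 and −0.0498), so the numbers are not read as a pairing. Between VHH-OD-PD-1-Fc and Ctrl, 1240 genes were called with the former as 1 sample. For the OD arm, leaving out 1 library gave 2 to 15 calls, and the block gave 2. Depth limits calls of genes near 1 FPKM.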
